A study of Mus musculus with 4 samples.

Results

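The genes described here encode the co-receptors that hand bacterial lipopolysaccharide (LPS) to Toll-like receptor 4 and the adaptors and kinases that carry the signal of Toll-like receptors (TLRs) into the cell. They were chosen by symbol, and all 10 (Cd14, Ly96, Myd88, Tirap, Ticam1, Ticam2, Irak1, Irak2, Irak3 and Irak4) were found among the 18256 gene symbols of the count tables. Their RNA was measured in macrophages grown from wild-type (WT) mouse bone marrow, in 2 groups of 2 libraries. Both groups were grown with 20 ng/ml macrophage colony-stimulating factor (MCSF) over a culture of 7 days. M0 cells stayed unstimulated in MCSF, and M1 cells were stimulated with 20 ng/ml interferon-gamma (IFN-γ) and 100 ng/ml LPS together for the last 24 h. The stimuli were always combined, so their separate effects cannot be told apart, and the labels do not say whether M1 medium also held MCSF. Strain, age and the number of animals are not given in the sources used here. Whether replicates are separate animals or cultures is not stated either, so a p-value here speaks of the spread between these libraries, which may be technical.

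LPS is lifted from the medium by CD14 and passed to MD-2, the product of Ly96, which sits on TLR4 and holds the lipid. At the plasma membrane TIRAP brings in MyD88, which gathers IRAK4, IRAK1 and IRAK2 into a helical complex that leads to NF-κB and MAP kinase activation. After uptake into endosomes TRAM, the product of Ticam2, brings in TRIF, the product of Ticam1, which leads to IRF3 and interferon-β. IRAK3, also called IRAK-M, is found mostly in monocytes and macrophages and is known as a brake on this pathway. MyD88 and the IRAK kinases also serve other TLRs and the interleukin-1 receptor family, whereas TLR3 signals through TRIF.

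The libraries held 15921466 to 18987705 counts, and each of the 10 genes had at least 181 counts in every library. Replicates were not copies of each other: chi-square per degree of freedom was 8.78 between the M0 libraries and 12.6 between the M1 libraries. By the quasi-likelihood test of edgeR, with adjusted p under 0.05, M1 was above M0 for 3140 of 12966 tested genes and below it for 3108. The macrophage markers Adgre1, Csf1r, Cd68, Mertk, Fcgr1, Lyz2 and Itgam were present in every library, with a summed level of 20328 to 22568 depth-scaled counts (CPM) in M0 and 27837 to 28286 in M1. Most of that sum was Lyz2, which did not pass (adjusted p = 0.0814), and of the 7 markers Adgre1, Fcgr1 and Itgam were higher in M1 and Cd68 and Mertk lower. Neutrophil markers, 9 genes, summed to 239 to 250.1 CPM in M0 and 110.04 to 149 in M1. Of these, 6 were lower, Camp was higher and S100a8 did not pass. Stromal markers, 4 genes, summed to 674 to 697 CPM in M0 and 442 to 499 in M1, with Col1a1 and Col1a2 lower and Pdgfrb and Dcn higher. Dendritic cell markers, 5 genes, summed to 8.23 to 8.92 CPM in M0 and 2.15 to 3.94 in M1. Of these, Zbtb46, Cd209a and Siglech were lower, and Xcr1, at 3.45 CPM or less, was higher. Markers of T, NK, B and erythroid cells summed to 5.08 CPM or less per list, with Cd3g, Ncr1 and Ms4a1 at 0 in all libraries. The part of other cells in the results was not tested, and in bulk RNA fewer cells of a type and less RNA per cell cannot be told apart.

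Most of the 10 genes were higher in M1, and they did not move as a block. Cd14, Myd88, Irak2 and Irak3 rose at least 2-fold, Ly96, Tirap and Ticam2 rose less, Irak1 fell, and Ticam1 and Irak4 did not pass. A difference in either direction passed for 8 of 10 genes, against 48.2% of all tested genes. The rise passed for 7 genes (70%), against 24.2% of all tested genes, and the fall for 1 (10%), against 24.0%. A rise of at least 2-fold was seen in 4 of 10, against 9.93% of tested genes, and the median log2 fold change was 0.75, against -0.02 for all tested genes. Libraries of the groups did not overlap for 8 of 10 genes, a share close to the 74.9% of all tested genes. Without M0 replicate 1 the rise passed for 4 genes, since Ly96, Tirap and Ticam2 were lost.

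**Figure D1:**
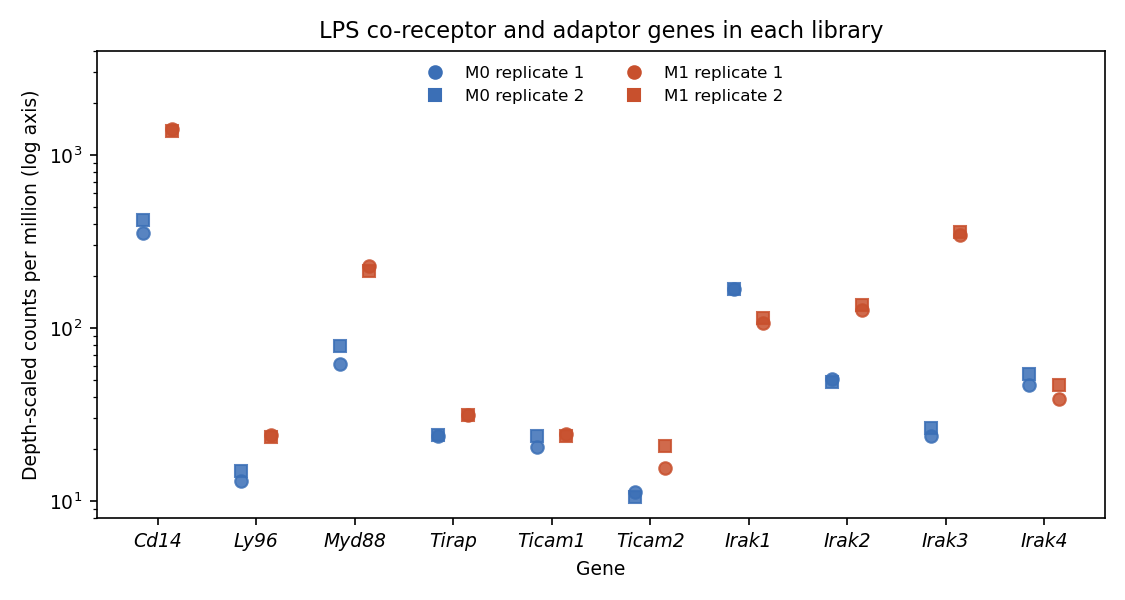
Depth-scaled counts (CPM, log axis) of the 10 genes in each library, with M0 in blue, M1 in red, replicate 1 as circles and replicate 2 as squares. Irak3 is furthest apart between groups, with 23.6 and 26.5 CPM in M0 and 345 and 360.1 in M1, while the groups overlap for Ticam1 and Irak4.

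Promoters are shown for Myd88, which sits where most TLRs meet, and for Irak3, which had the largest fold. RefSeq (GRCm38.p6) gave windows from 250 bases before to 50 after the start for 7 of the 10 genes, and Cd14, Ly96 and Ticam2 were not searched. The letters searched, on both strands, were GGGA, any base and TTTCC for the κB element bound by NF-κB, GAAA, any 2 bases and GAAA for the interferon-stimulated response element, and TTCNNNGAA for the interferon-gamma activated site bound by STAT factors. Capitals mark the matches, and the printed windows lie on the minus strand and are written 5′ to 3′ along the gene.
Myd88, chr9:119339969-119340268: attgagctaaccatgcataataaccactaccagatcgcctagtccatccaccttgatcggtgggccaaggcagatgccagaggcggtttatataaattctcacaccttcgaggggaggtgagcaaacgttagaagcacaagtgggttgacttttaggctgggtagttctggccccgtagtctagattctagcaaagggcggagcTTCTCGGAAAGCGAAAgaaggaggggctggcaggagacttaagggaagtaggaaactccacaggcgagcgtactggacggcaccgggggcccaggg
Irak3, upstream start, chr10:120202081-120202380: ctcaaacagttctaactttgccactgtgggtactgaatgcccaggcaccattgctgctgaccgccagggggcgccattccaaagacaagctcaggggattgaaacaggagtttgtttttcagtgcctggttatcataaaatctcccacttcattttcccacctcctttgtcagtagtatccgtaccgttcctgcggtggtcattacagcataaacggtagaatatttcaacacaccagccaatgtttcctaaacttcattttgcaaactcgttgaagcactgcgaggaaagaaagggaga
Irak3, downstream start, chr10:120201548-120201847: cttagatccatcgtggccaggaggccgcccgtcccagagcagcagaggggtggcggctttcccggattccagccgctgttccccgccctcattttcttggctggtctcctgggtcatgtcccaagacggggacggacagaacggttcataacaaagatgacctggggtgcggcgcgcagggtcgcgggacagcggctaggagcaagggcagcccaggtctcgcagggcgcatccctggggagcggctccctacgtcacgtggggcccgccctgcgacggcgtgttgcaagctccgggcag

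The Myd88 window held GAAAGCGAAA, a match to the response element, starting at base -40 from the start site, and TTCTCGGAA, a match to the activated site, starting at -46. The 2 matches share 3 bases. Positions are counted from the RefSeq start. The GENCODE span of Myd88 reaches to 119341411, upstream of this window on the minus strand, and no window was searched there. Of 32851 promoter windows of the same length, 3.44% held the letters of the response element, 8.3% those of the activated site and 0.411% those of the κB element. No match to the 3 patterns was found in the windows of Tirap, Ticam1, Irak1, Irak2, Irak3 or Irak4, which says only that these letters are not in these windows. A match is a description of letters and no measurement of binding.

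The co-receptors rose while the receptor they serve fell. Cd14 (chromosome 18), a surface protein anchored by a lipid and a marker of monocytes and macrophages, stood at 354 and 421 CPM in M0 replicates 1 and 2 and at 1406 and 1370.0 in M1 replicates 1 and 2. Every M1 library lay far above both M0 libraries. The means were 388 ± 47.5 and 1388 ± 25.8 CPM (SD, n = 2 libraries per group here and throughout), a 3.58-fold rise (log2 fold change 1.84, 95% interval 1.60 to 2.08, SE 0.11, adjusted p = 1.12e-07). Ly96 (chromosome 1, 16688051 to 16709611, GRCm38 here and below) had 13.1 and 14.8 CPM in M0 and 24.1 and 23.3 in M1. Both M1 values were above both M0 values, and per kilobase of exon Ly96 stood at 23.2 CPM in M1 against 802 for Cd14. The log2 fold change of Ly96 was 0.76 (95% interval 0.41 to 1.12, adjusted p = 0.00239), and the call was lost without M0 replicate 1 (0.68, adjusted p = 0.0584).

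Tlr4 itself, the signalling receptor, had 165 and 157 CPM in M0 and 70.2 and 72.1 in M1. The groups were well apart, and the log2 fold change was -1.18 (adjusted p = 2.5e-06). Cd14 and Tlr4 therefore moved in opposite directions within the same libraries. Per kilobase of exon, Cd14 was at 6.88 and 8.61 times the level of Tlr4 in M0 and at 64.3 and 60.9 times in M1. The Ly96 level was 0.433 and 0.514 of that of Tlr4 in M0, under 1 in both libraries, and 1.87 and 1.76 times it in M1. These ratios are taken within a library, so their change does not depend on how libraries are scaled. The groups did not overlap for either ratio, but an exact permutation test of 2 against 2 libraries, two-sided, cannot go below p = 0.333, which both reached. The ratios were chosen after the values were seen.

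Of the 4 genes listed as partners of the LPS receptor, Tlr4 included, 1 rose, 2 fell and 1 did not pass. Of all tested genes 24.2% rose and 24.0% fell. The pair made of Cd180, a TLR4-like surface protein, and Ly86, its MD-1 partner, showed Ly86 higher (96.3 ± 10.3 CPM in M0, 131 ± 0.686 in M1, log2 fold change 0.45, adjusted p = 0.00568) and Cd180 lower (191 ± 1.18 and 159 ± 3.81 CPM, log2 fold change -0.26, adjusted p = 0.0373). Ly86 lost its call without M0 replicate 1 (adjusted p = 0.115) and with library totals (adjusted p = 0.151), and Cd180 whichever library was left out (adjusted p = 0.0635 to 0.178). Lbp, the serum protein that delivers LPS to CD14, had only 10 to 16 counts per library.

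**Figure D2:**
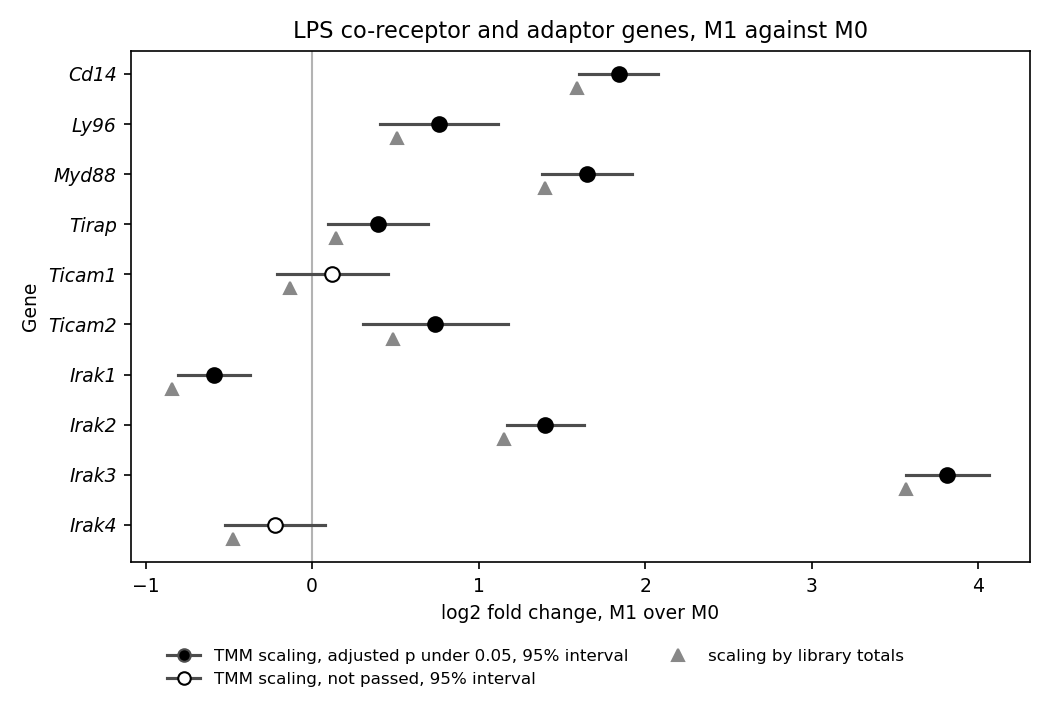
Log2 fold change of M1 over M0 for the 10 genes, with 95% intervals from the edgeR fit with TMM scaling (circles, filled where adjusted p is under 0.05) and the estimate with libraries scaled by their totals (triangles). Irak3 stands furthest to the right at 3.81, Irak1 is the only gene whose interval lies wholly below 0, and Ticam1 changes sign with library totals.

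Among the adaptors Myd88 rose most, Tirap and Ticam2 rose less and Ticam1 did not pass. Myd88 (chromosome 9, 119335934 to 119341411) had 62.2 and 78.7 CPM in M0 and 228 and 214 in M1. The M1 libraries were close to each other and well above M0. The rise was 3.14-fold (70.5 ± 11.7 to 221 ± 9.71 CPM, log2 fold change 1.65, 95% interval 1.38 to 1.92, adjusted p = 8.7e-07). Exons of Acaa1a on the opposite strand cover 11.3% of Myd88 exon sequence, and since the strand setting of the counting is not known, reads there cannot be assigned to one or the other.

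Tirap (chromosome 9, 35184551 to 35200291), the sorting adaptor that places MyD88 at the membrane, had 23.6 and 24.2 CPM in M0 and 31.4 and 31.5 in M1. The replicates nearly coincided and the groups did not overlap. Its log2 fold change of 0.40 (95% interval 0.10 to 0.69) passed with adjusted p = 0.0319, and the call was lost whichever library was left out (adjusted p = 0.0707 to 0.149), with DESeq2 (0.0835), with library totals (0.398), with upper-quartile scaling (0.0978) and with the replicate number as a block (0.0587). Exons of Srpr and Gm39318 on the other strand cover 9.84% of Tirap exon sequence.

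Ticam1 (chromosome 17, 56269319 to 56276786), which encodes TRIF, had 20.6 and 23.9 CPM in M0 and 24.6 and 23.7 in M1. The groups overlapped, and the log2 fold change of 0.12 (adjusted p = 0.544) had a 95% interval of -0.21 to 0.45, so a rise as large as that of Myd88 lies outside it. The sign of the Ticam1 estimate flipped to -0.13 with library totals, without a call. Ticam2 (chromosome 18), which encodes TRAM and had the lowest level of the 10 genes per kilobase, had 11.3 and 10.5 CPM in M0 and 15.5 and 20.9 in M1. Both M1 libraries were higher, but they differed from each other more than the M0 libraries did. The log2 fold change was 0.74 (95% interval 0.30 to 1.17, adjusted p = 0.00972), and the call was lost without M0 replicate 1 (adjusted p = 0.105), M0 replicate 2 (0.129) or M1 replicate 2 (0.0771) and with library totals (0.0602). Tmed7 exons on the same strand cover 14.5% of Ticam2 exon sequence, so its count is uncertain there.

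Within a library, the Myd88 level per kilobase was 3.51 and 3.83 times that of Ticam1 in M0 and 10.8 and 10.5 times in M1. The ratio rose 2.90-fold with no overlap of groups (exact permutation p = 0.333, the smallest possible). The ratio of Tirap to Ticam2 was 2.45 and 2.71 in M0 and 2.38 and 1.77 in M1, with the M1 libraries further apart than the gap between groups.

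**Figure D3:**
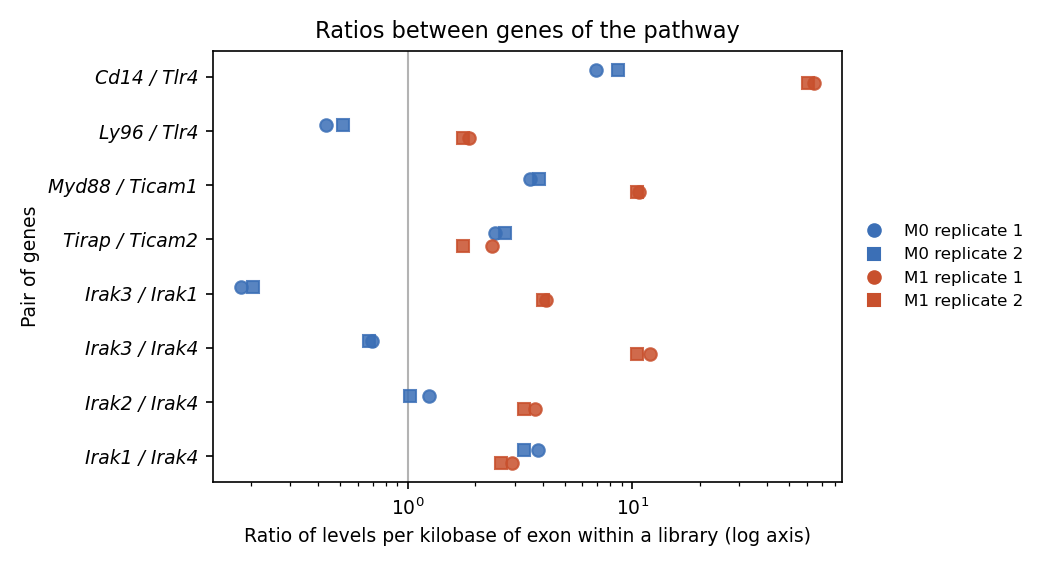
Ratios of levels per kilobase of exon between pairs of genes within each library (log axis), with M0 in blue, M1 in red and the line at equal levels. The ratio of Irak3 to Irak1 crosses that line, from 0.182 and 0.204 in M0 to 4.13 and 4.02 in M1, while the ratio of Irak1 to Irak4 stays between 2.60 and 3.82.

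The IRAK genes did not change alike: Irak2 and Irak3 rose, Irak1 fell and Irak4 did not pass. Per kilobase of exon, Irak3 took the place of Irak1 as the highest of them. Irak3 (chromosome 10, 120141648 to 120202130), the gene of the inhibitory IRAK-M, had 23.6 and 26.5 CPM in M0 and 345 and 360.1 in M1. No other of the 10 genes showed groups so far apart. The means were 25.1 ± 2.05 and 352 ± 10.8 CPM, a 14.1-fold rise (log2 fold change 3.81, 95% interval 3.57 to 4.06, adjusted p = 5.06e-10), and 97.9% of tested genes had a lower log2 fold change. The rise passed under all 13 alternatives that were run, with log2 fold changes of 3.56 to 3.90. Exons of Tmbim4 and of the antisense gene Gm47009 on the other strand cover 5.98% of Irak3 exon sequence.

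Irak2 (chromosome 6, 113638467 to 113695026), which sustains signalling in the MyD88 complex after the first hours, had 50.9 and 48.7 CPM in M0 and 127 and 136 in M1. Replicates were close in both groups. It rose 2.64-fold (log2 fold change 1.40, 95% interval 1.17 to 1.63, adjusted p = 9.58e-07). Its interval lies wholly below that of Irak3. The unclassified gene Gm43963 on the other strand covers 4.44% of Irak2 exon sequence.

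Irak1 (chromosome X, 74013914 to 74023918), the kinase that IRAK4 phosphorylates early in the response, had 167 CPM in both M0 libraries and 107 and 115 in M1. It was the single gene of the 10 that fell, by 0.59 on the log2 scale (95% interval -0.80 to -0.37, adjusted p = 0.000486), and the fall passed under all 13 alternatives. Irak4 (chromosome 15, 94543643 to 94581815), the kinase at the start of the cascade, had 46.6 and 53.9 CPM in M0 and 39.1 and 47.0 in M1. The groups overlapped, and its log2 fold change of -0.22 (95% interval -0.52 to 0.08, adjusted p = 0.201) did not pass, although it passed as lower with library totals (-0.47, adjusted p = 0.0127). Twf1 exons on the opposite strand cover 7.87% of Irak4 exon sequence.

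Divided by exon length, the 4 IRAK genes summed to 62.7 and 64.4 CPM per kilobase in M0 and to 153 and 163 in M1. Irak1 made up 56.5% and 55.0% of that sum in M0 replicates 1 and 2 and 14.8% and 15.0% in M1. Irak3 made up 10.3% and 11.2% in M0 and 61.2% and 60.3% in M1. The leading IRAK transcript was thus Irak1 in each M0 library and Irak3 in each M1 library. The share of Irak2 moved least, at 18.4% and 17.1% in M0 and 18.8% and 19.0% in M1, and that of Irak4 went from 14.8% and 16.7% to 5.08% and 5.76%. For each share the groups did not overlap, and the exact two-sided permutation p was 0.333, the smallest that 2 against 2 libraries allow. Without length scaling the means were 57.2% in M0 and 17.4% in M1 for Irak1 and 8.58% and 55.2% for Irak3.

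**Figure D4:**
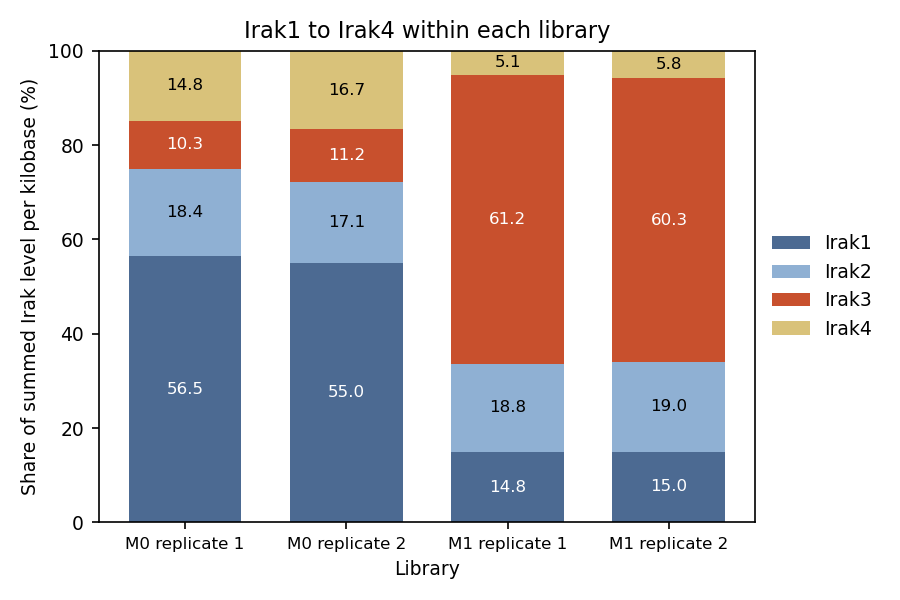
Share of each Irak gene in the summed level per kilobase of exon of Irak1 to Irak4, as stacked bars for each library, with the percent written in each segment. Irak1 is the largest segment in both M0 bars (56.5% and 55.0%) and Irak3 in both M1 bars (61.2% and 60.3%).

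Within a library, the Irak3 level was 0.182 and 0.204 times that of Irak1 in M0 and 4.13 and 4.02 times in M1, a 21.2-fold shift. Against Irak4 it was 0.693 and 0.673 times in M0 and 12.1 and 10.5 times in M1. Irak2 was at 1.24 and 1.03 times the level of Irak4 in M0 and at 3.70 and 3.29 times in M1. Irak1 and Irak4 moved less against each other, with ratios of 3.82 and 3.30 in M0 and 2.92 and 2.60 in M1.

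The order of the 10 genes by level per kilobase in M0 was Cd14, Irak1, Myd88, Ly96, Irak2, Irak4, Ticam1, Irak3, Tirap and Ticam2. Libraries of neighbours in that order overlapped only for Ticam1 (7.43 ± 0.781 CPM per kilobase) and Irak3 (6.82 ± 0.558). In M1 the order was Cd14, Irak3, Myd88, Irak2, Irak1, Ly96, Irak4, Ticam1, Tirap and Ticam2. Neighbours overlapped for Irak1 (23.6 ± 1.16) and Ly96 (23.2 ± 0.563) and for Irak4 (8.57 ± 1.11) and Ticam1 (8.06 ± 0.207). Irak3 moved from the eighth to the second place, Irak1 from the second to the fifth. These places rest on the union of exons as length. They were not rerun with the longest transcript, and places of neighbours can change with it. Cd14 was first in both, at 224 ± 27.4 in M0 and 802 ± 14.9 CPM per kilobase in M1, above 98.9% and 99.7% of tested genes with a known length. Ticam2 was last in both, at 1.88 ± 0.101 and 3.14 ± 0.66.

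The other genes of the pathway were read from lists of 76 genes, of which 69 could be tested. Among these 40 rose and 8 fell, against 24.2% and 24.0% of all tested genes, and 21 did not pass. The 69 include 9 NF-κB targets and 7 IRF3 and interferon targets, and all of these targets rose. The count of rises is therefore no measure of the receptors, enzymes and inhibitors alone. The count of falls was 3 to 6 when single libraries were left out and 16 with library totals. TLR genes other than Tlr4, which fell as given above, and TLR chaperone genes rose in 8 of 12 tested cases and fell in 1. The median log2 fold change was 0.54. The rises were those of Tlr1, Tlr2, Tlr3 and Tlr6 and of the chaperone genes Hsp90b1, Cnpy3, Cnpy4 and Unc93b1. The 3 that did not pass were Tlr7, Tlr8 and Tlr9, with log2 fold changes of -0.19, -0.34 and -0.22. TLR2 senses bacterial lipoproteins together with TLR1 or TLR6, and the genes of all of them rose, namely Tlr1 (61.7 ± 2.59 to 366 ± 11.9 CPM, log2 fold change 2.57), Tlr2 (274 ± 12.6 to 591 ± 26.4, 1.11) and Tlr6 (26.2 ± 0.658 to 56.3 ± 0.0231, 1.10). Tlr3, the receptor for double-stranded RNA that uses TRIF, rose from 18.0 ± 4.10 to 75.8 ± 0.0747 CPM (2.08). Tlr13 fell by 1.94 on the log2 scale.

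Of 5 tested interleukin-1 family receptor genes, 3 rose and 0 fell, against 24.2% and 24.0% of all tested genes. Il1rap, the shared accessory chain, was at 11.96 ± 0.369 CPM in M0 and rose to 36.1 ± 0.493 CPM (1.59 on the log2 scale, adjusted p = 5.09e-06), and Il1rl2, the interleukin-36 receptor, from 1.40 ± 0.558 to 11.9 ± 0.474 CPM (3.10).

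Of 20 tested enzymes and factors downstream of the adaptors 6 rose and 2 fell, against 24.2% and 24.0% of all tested genes. The other 12 did not pass, and the median was 0.12. Traf6, the ubiquitin ligase that IRAK complexes engage, had 65.4 ± 6.41 CPM in M0 and 58.9 ± 3.11 in M1 (adjusted p = 0.32). Map3k7, which encodes the TAK1 kinase, had 106 ± 1.91 and 99.4 ± 2.65 CPM (adjusted p = 0.493). Both passed as lower with library totals, Traf6 with adjusted p = 0.0157 and Map3k7 with 0.0141. Irf7 had the largest rise of this list, from 16.6 ± 1.48 to 1529 ± 36.2 CPM (6.53). The kinases on the TRIF side rose, Ikbke from 90.4 ± 4.28 to 537 ± 27.4 CPM (2.57) and Tbk1 from 124 ± 5.02 to 201 ± 3.75 CPM (0.71). Traf3, a ligase between TRIF and those kinases, rose by 0.40 on the log2 scale (adjusted p = 0.01), but did not pass without M0 replicate 1 (0.107), without M0 replicate 2 (0.118) or with library totals (0.276). The Pellino ubiquitin ligases, which bind IRAK proteins, split: Peli1 rose from 60.5 ± 4.87 to 228 ± 2.27 CPM (1.91) and Peli2 fell from 42.9 ± 0.528 to 7.41 ± 2.48 CPM (-2.53, adjusted p = 1.66e-06).

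Inhibitors of TLR signalling rose in 6 of 12 cases and fell in 3, with 3 not past the threshold and a median of 0.45. Of all tested genes 24.2% rose and 24.0% fell, so the share of falls was near that of all genes. Socs1 had the largest rise of this list, from 0.703 ± 0.317 to 26.5 ± 1.14 CPM (5.25), with only 10 and 16 counts in M0. Tnfaip3, which encodes the ubiquitin-editing enzyme A20, rose from 41.6 ± 3.70 to 337 ± 31.5 CPM (3.02) and its partner Tnip1 from 68.0 ± 5.05 to 348 ± 4.03 CPM (2.35). Pik3ap1, which links TLRs to phosphoinositide 3-kinase, rose from 195 ± 17.7 to 591 ± 122 CPM (1.60) and Dok3 from 44.5 ± 5.83 to 102 ± 10.8 CPM (1.20). Itch, a ubiquitin ligase, fell by 0.49 (adjusted p = 0.00249), but did not pass without M0 replicate 1 (0.0812). Tollip, which binds IRAK1, had 99.5 ± 10.5 CPM in M0 and 82.3 ± 3.23 in M1 (adjusted p = 0.0644), and passed as lower with library totals and upper-quartile scaling. Sigirr, an inhibitory receptor of the family, had 27 to 56 counts in M0 and 4 to 12 in M1, and its call as lower was lost without M0 replicate 1 (adjusted p = 0.242), M0 replicate 2 (0.0983) or M1 replicate 2 (0.119).

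Of 9 listed NF-κB targets 9 rose, with a median log2 fold change of 4.94. Of 7 tested IRF3 and interferon targets 7 rose, with a median of 6.51. Among all tested genes 24.2% rose. M1 cells received IFN-γ together with LPS, so these rises cannot be assigned to either stimulus or to 1 adaptor route. Cxcl2, a neutrophil chemokine of the first list, went from 5.24 ± 2.59 to 170.5 ± 11.6 CPM (5.05). With single libraries left out the Cxcl2 estimate was 4.59 to 5.65. Ifit1 of the second list went from 14.4 ± 4.37 to 1201 ± 42.1 CPM (6.39). Interferon-β, Ifnb1, had no count in M0 and 4 counts in each M1 library, too few to be tested.

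**Figure D5:**
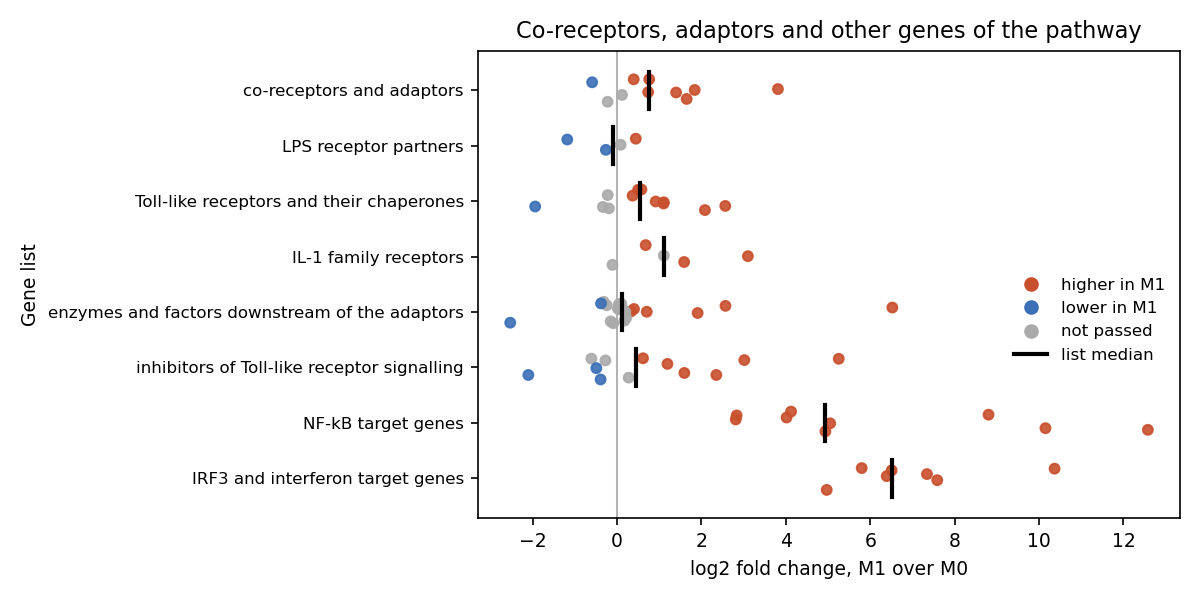
Log2 fold change of M1 over M0 for each tested gene of the 10 co-receptors and adaptors and of 7 further lists, coloured by call (red higher, blue lower, grey not passed), with the list median as a black bar. Medians are 0.75 for the co-receptors and adaptors, 0.12 for downstream enzymes and factors and 4.94 and 6.51 for the target lists, where fitted values of genes with 0 to 4 counts in an M0 library depend on the prior count.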

How the data were processed

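Each deposited table gives raw read counts by gene symbol for 1 library, and the submitters' processing notes name featureCounts, Subread 2.0.1 and the build mm10. Aligner, annotation, strand setting and filters are not given in the sources used here. RNA was depleted of ribosomal RNA, per the labels' protocols. From these counts, edgeR 4.0.16 in R 4.3.3 kept 12966 of 18256 genes (filterByExpr, minimum count 10, minimum total 15), applied TMM scaling and the quasi-likelihood test of M1 against M0 on group only, with p-values adjusted by Benjamini-Hochberg across the tested genes and called below 0.05. The standard error of a log2 fold change was taken as its size over the square root of F. CPM uses library totals times TMM factors, and 3 counts equal 0.144 to 0.185 CPM. Levels per kilobase divide CPM by the union of GENCODE vM21 (GRCm38) exons, found for 97.8% of symbols. The fits were tested on simulated data. Those data gave all genes the same dispersion and changed few of them. They therefore do not check the scaling where many genes differ, as here.

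The 10 genes, gene lists and tests were chosen with earlier results of these data known. All 10 genes are named. From each list the rule takes up to 5 called genes with the largest change and at least 10 CPM in the higher group, up to 2 called the other way, and Tlr4, Traf6, Traf3, Tbk1, Map3k7, Tollip, Sigirr and Tnfaip3. The text prints some of these. Lbp, Ifnb1, Tlr7, Tlr8, Tlr9 and the TLR chaperone genes were added after their values were seen. Alternatives were other scalings (RLE, upper quartile, totals), DESeq2 1.42.0, limma-voom (limma 3.58.1), other filters, a replicate block and each library left out. A planned comparison of IRAK proteins was not run.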

Additional observations from a re-analysis of the deposited data

How the results depend on the processing

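Under the alternatives run, Cd14, Myd88, Irak1, Irak2 and Irak3 kept direction and call in all 13. The median over all genes shifted by -0.25 (log2) when libraries were scaled by their totals and by -0.10 with upper quartiles. With totals 2026 genes were higher and 4776 lower (29.8% higher, against 50.3%), 2 of the 10 genes were lower, 16 other pathway genes were lower, Irak4 passed at -0.47, Ticam1 reversed to -0.13 without a call, and Ticam2 (0.49) and Tirap (0.14) lost their calls. Scaling shifts all log2 fold changes alike by construction. Tirap also lost its call with upper-quartile scaling (0.29), DESeq2 (0.40) and the replicate block (0.40), and for DESeq2 and the block the cause was not tested. Leaving out single libraries, a fit with 1 residual degree of freedom that assumes the lone library varies like the other group, gave log2 fold changes of 0.68 to 0.86 for Ly96, 0.52 to 0.94 for Ticam2 and 0.38 to 0.42 for Tirap. It gave 1691 to 2965 genes higher and 1463 to 2854 lower, 4 to 6 of the 10 genes higher, and 3 to 6 other pathway genes lower. The replicate number as a block gave 2957 genes higher and 2975 lower and 6 of the 10 genes higher. Deviations of same-numbered libraries had only a weak negative correlation across genes (r = -0.14), which does not show pairing. A block with the M1 numbers crossed, added after the data were seen, gave 3648 higher and 3627 lower. The directions of the 4 IRAK share changes held with the longest transcript as length, without length and without each library. Ratios between genes depended on the length used. With the longest transcript the mean M1 ratio of Cd14 to Tlr4 was 48.5 instead of 62.6, and that of Irak3 to Irak4 9.15 instead of 11.3. The mean M1 ratio of Ly96 to Tlr4 was 2.04 instead of 1.81. The lowest count of any of the 10 genes was 181, whereas Sigirr and Lbp had 4 to 56 counts per library, where depth limits the estimates.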
